A study of Mus musculus with 17 samples.

Results

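Antibiotic given before DSS was compared with DSS alone in mice that lack MCJ. The 3 KO_PP libraries, numbered 22, 23 and 24, came from MCJ-deficient mice that had 7 days of a broad-spectrum antibiotic followed by 6 days of DSS. The 3 KO_NP libraries, numbered 19, 20 and 21, came from MCJ-deficient mice that had the 6 days of DSS with no antibiotic. Both groups thus carried the same deficiency and the same DSS course, all mice were C57BL/6(h-2b) of 8 weeks, and the antibiotic alone set them apart by label. These 6 libraries of the 17 in the series were chosen by group label, and 14553 of the 27179 genes in the tables passed the filter on low counts and were tested. The rest of the series holds wild-type mice under the same treatments, WT_PP and WT_NP, and mice of both genotypes with no treatment named. The labels do not name the antibiotic or the allele behind the deficiency, and KO stands here for MCJ-deficient. The 6 libraries carry 6 different mouse numbers in the labels. The p values measure the spread between these samples.

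MCJ, the product of Dnajc15, is a small protein of the inner mitochondrial membrane that acts as a brake on complex I of the respiratory chain. DSS is a sulfated polysaccharide that damages the epithelium of the colon, after which neutrophils and monocytes enter the wall and monocytes turn into macrophages. Gut bacteria feed the epithelium with butyrate and are sensed through Toll-like and NOD receptors, and antibiotics deplete them.

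The libraries held 34749086 to 36367332 counts in KO_PP and 34932286 to 37083344 in KO_NP. Library KO_PP 24 stood apart: its median count per gene was 2, against 16 to 21 in the other 5 libraries, it lay at 140.3 on the first principal component where the others lay between -68.5 and 20.3, and it held the genes of the exocrine pancreas. Results are therefore given with it and, where its absence matters, without it. Library KO_NP 21 held 118 CPM (counts scaled to a common library size with TMM factors) of Xist, the RNA of the inactive X chromosome, together with 16.03 CPM of the Y-linked Ddx3y, while the other 5 libraries held at most 0.234 CPM of Xist. These 2 genes were chosen after their values were seen. Whether KO_NP 21 holds RNA of more than 1 mouse was not tested, and every call was lost without it. Dnajc15, on chromosome 14, was at 0.546, 0.585 and 3.53 CPM in the KO_PP libraries, against 2.596, 1.805 and 2.01 CPM in the KO_NP libraries, which overlapped. The 12 libraries of both genotypes with DSS put it, scaled over all 17 libraries, at 0.509, 0.587 and 3.34 CPM in KO_PP and 2.54, 1.74 and 1.88 CPM in KO_NP, and at 27.4, 23.7 and 28.4 CPM in WT_PP and 39.2, 38.4 and 35.1 CPM in WT_NP. All 6 MCJ-deficient libraries lay below every wild-type one.

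The label of the tissue, colon macrophages, was checked against markers of the cell types that a colon digest can hold, and the protocol names no step of sorting. Markers of macrophages summed to 3398, 3447 and 2672 CPM of nuclear counts in the KO_PP libraries, against 651, 2194 and 1190.3 CPM in the KO_NP libraries. Markers of colonocytes, the absorptive cells of the epithelium, summed to 23497, 17377 and 24479 CPM in the KO_PP libraries, against 48178, 37374 and 42146 CPM in the KO_NP libraries. Transcripts of the epithelium were thus plentiful in every library, the macrophage sums were higher and the colonocyte sums lower in all 3 KO_PP libraries, and neither pair of groups overlapped. The exact two-sided permutation p was 0.1 for each, the smallest that 3 libraries against 3 allow. Lyz2 alone held 50.1% of the counts of the macrophage list, followed by Itgam, which monocytes and neutrophils share. All 16 members had a positive log2 fold change. The edgeR test given below called 6 of them higher, where 4.91% of all genes were. Adgre1, Mrc1 and C1qb were not called. In such mixed samples, more cells of a type and more RNA per cell cannot be told apart. The sums of monocyte, neutrophil, dendritic cell, T and NK cell, crypt progenitor, adipocyte and red blood cell markers were also higher without overlap, and the sum of eosinophil and mast cell markers was lower, each at an exact permutation p of 0.1 and an adjusted p of 0.19 over the 19 sums tested. Cd44 alone held 58.1% of the counts of the crypt list. Of its members, 6 had a positive and 6 a negative log2 fold change (median -0.27). Il7r held 49.2% of the counts of the T and NK cell list, whose 11 tested members all had a positive value.

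**Figure D1:**
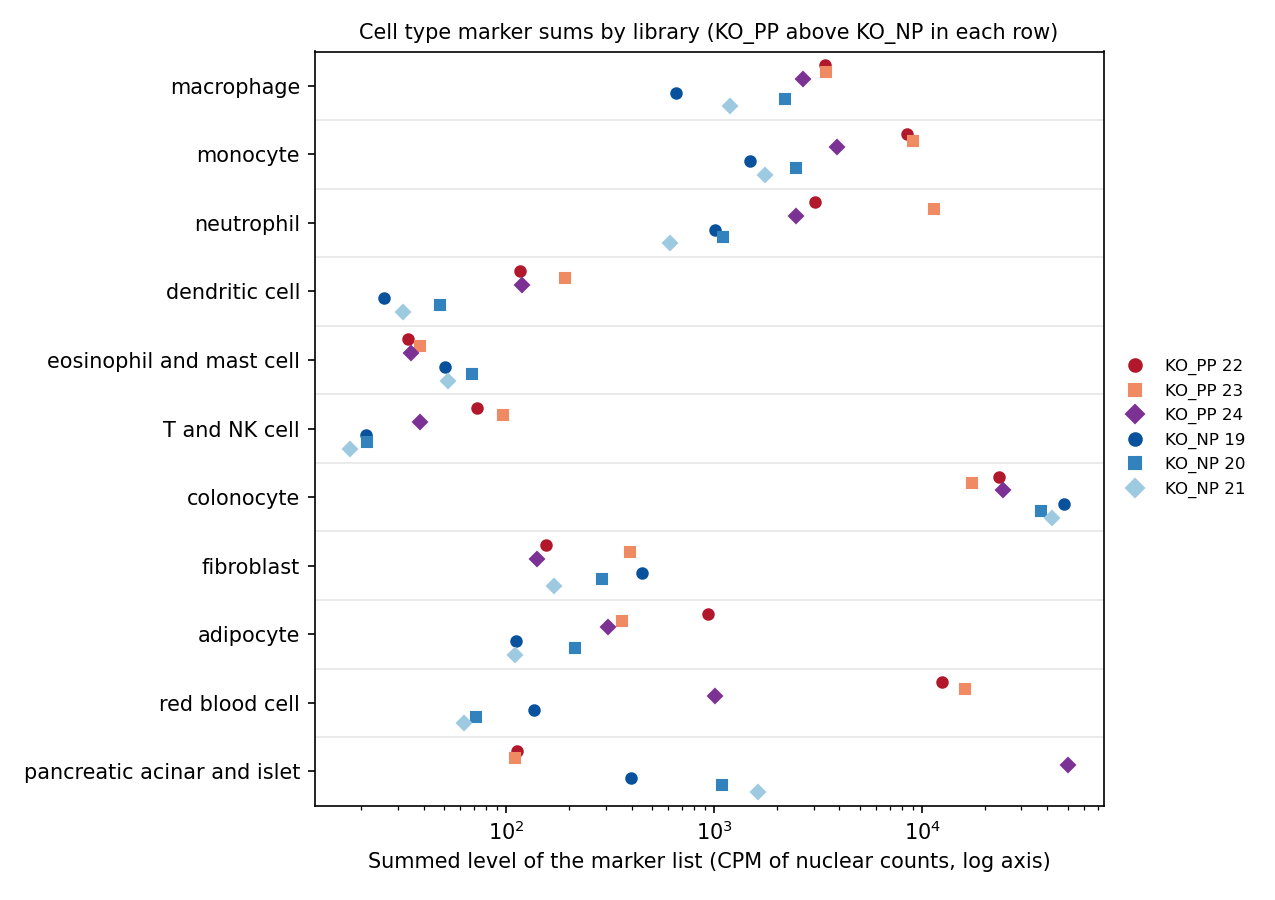
Summed level of 11 lists of cell type markers in each library, in CPM of nuclear counts on a log axis, with the 3 KO_PP libraries above the 3 KO_NP libraries in each row and 1 point per library. The macrophage, monocyte, neutrophil and red blood cell points of KO_PP lie to the right of those of KO_NP, the colonocyte points lie to the left, and the pancreatic sum of KO_PP 24, at 50086 CPM, lies far from the others.

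With antibiotic before DSS, 714 genes were higher (4.91% of those tested) and 88 were lower (0.605%) by the edgeR quasi-likelihood test at a Benjamini-Hochberg adjusted p under 0.05. The median log2 fold change was 2.37 among the higher genes and -1.78 among the lower ones, against 0.02 over all genes tested. Genes whose groups did not overlap came to 2159 higher (14.8%) and 1663 lower (11.4%), and 2742 genes (18.8%) had an unadjusted p under 0.05. Without KO_PP 24 the counts were 1163 higher (7.59%) and 377 lower (2.46%), and 691 of the 714 and 81 of the 88 were called again. The number of calls rested on single libraries of both groups. It was 73 higher and 2 lower without KO_PP 22, and 334 and 52 without KO_PP 23. It was 4 and 4 without KO_NP 19, 496 and 30 without KO_NP 20, and 0 and 0 without KO_NP 21, where 1948 genes had an unadjusted p under 0.05.

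Among the 15 largest increases were genes of red blood cells, of inflammatory myeloid cells and of fat, and the 15 largest decreases included genes of the colon epithelium. The increases included Itih4, Alas2, Hbb-b1, Hbb-bs, Hba-a2, Hba-a1, Slamf1, Mrap, Nos2, Ccl5, Alpk2, U90926, Plin4 and Serpina3c, of which Serpina3c had the smallest log2 fold change, 5.29. Itih4, an inhibitor chain found in blood plasma, had 1 count in all of KO_NP, and its ratio of 590.0 carries a 95% counting interval of 105 to 23300.0. The decreases were Hoxd13, Reg4, AI854703, Gjb5, Eno3, Slc46a1, Slc15a1, Tgm3, Ano1, Atp12a, Slc37a2, St8sia5, Mettl7a3, Dio1 and Dbp, of which Dbp had the smallest change, -2.73. None of the 30 kept its call whichever library was left out, and without KO_NP 21 all 30 lost it. The sign of the change stayed the same for each of them in all of those fits.

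**Figure D2:**
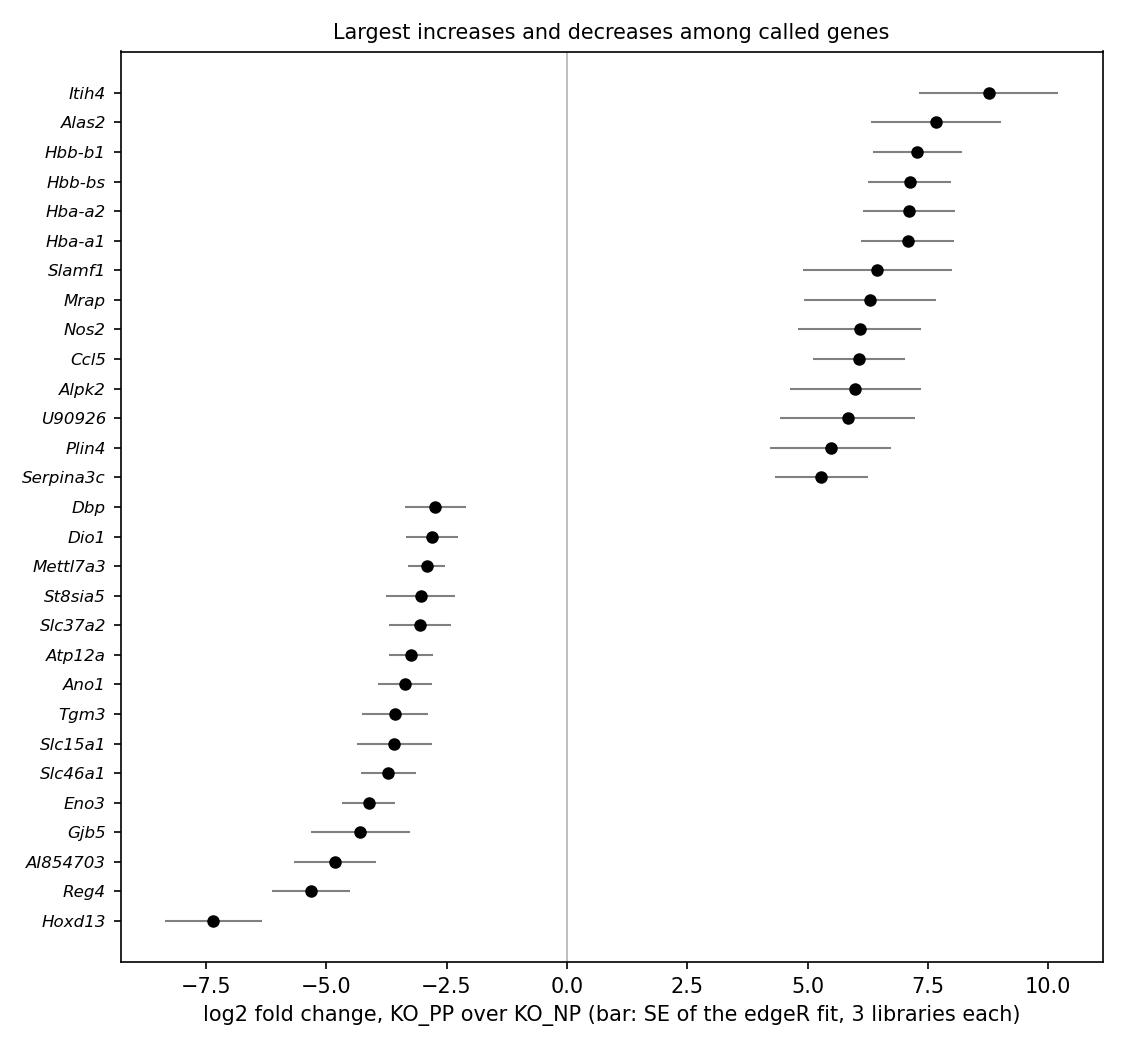
log2 fold change of KO_PP over KO_NP for 14 of the largest increases and the 15 largest decreases among called genes that carry a descriptive symbol and average 50 or more normalized counts; points are edgeR estimates, bars their SE, with 3 libraries per group. The increases reach further from 0 than the decreases.

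Most neutrophil markers rose. Of the 11 neutrophil markers tested, 7 were higher and none was lower, and the median log2 fold change was 2.75, where 4.91% of all genes were higher and the median of all genes was 0.02. Ngp, which encodes neutrophilic granule protein, was at 96.5, 161 and 53.9 CPM in the KO_PP libraries, against 3.54, 1.89 and 2.72 CPM in the KO_NP libraries. Mmp8, the collagenase of neutrophils, was at 221, 359 and 177 CPM in the KO_PP libraries, against 16.5, 12.7 and 9.501 CPM in the KO_NP libraries. Every KO_PP library lay far above every KO_NP library for both genes, and KO_PP 23 was the highest. The log2 fold changes were 5.25 ± 0.48 (SE) for Ngp and 4.29 ± 0.38 for Mmp8, each with an edgeR adjusted p of 0.00459, the smallest of all genes tested. Both kept the call in 5 of the 6 fits that left out a library, and without KO_NP 21 their adjusted p was 0.0959.

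Lcn2, lipocalin-2, which neutrophils and stressed epithelium release to withhold iron from bacteria, was at 582, 2598 and 225 CPM in the KO_PP libraries, against 51.5, 40.1 and 53.9 CPM in the KO_NP libraries. The groups did not overlap, and library 23 was far above the other KO_PP libraries. Its log2 fold change was 4.55 ± 0.81 (edgeR adjusted p = 0.0148). S100a8, a subunit of the antimicrobial protein calprotectin, was at 502, 2373 and 638 CPM in the KO_PP libraries, against 155, 144 and 60.3 CPM in the KO_NP libraries. Its log2 fold change was 3.29 ± 0.65 (edgeR adjusted p = 0.0202), whereas its partner S100a9, at 288, 1916 and 442 CPM in the KO_PP libraries, against 169, 154 and 71.2 CPM in the KO_NP libraries, missed the threshold with 2.75 ± 0.69 (edgeR adjusted p = 0.0507) and passed it without KO_PP 24 (adjusted p = 0.0361). The receptor Csf3r for the growth factor G-CSF, Trem1, an amplifier of myeloid activation, and Ltf, which encodes lactoferrin and was named after its values were seen, completed the 7. Ly6g, a surface marker of mature neutrophils, was at 51.8, 79.9 and 61.5 CPM in the KO_PP libraries, against 41.3, 102 and 32.2 CPM in the KO_NP libraries, so that the groups overlapped. Scaled over all 17 libraries, mice with no treatment named held 20.97 to 63.74 CPM of Ly6g but at most 0.878 CPM of S100a8. Ly6g thus did not follow S100a8 there, and whether its overlap reflects the number of mature neutrophils was not tested. Mpo and Elane, the primary granule genes of early neutrophils, had no more than 0.338 CPM in any of the 6 libraries. Ly6g, Mpo and Elane too were named after their values were seen.

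The 250 bases before the start of these genes were read for a motif of the C/EBP family, factors that drive granule genes during neutrophil maturation. The motif searched was TTGCNNAA on either strand, which 10.8% of 27025 genes with a RefSeq promoter window (GRCm38.p6) hold. Among the 7 called neutrophil markers, 4 held it: Lcn2, Ltf, Mmp8 and Ngp. The stretches of 3 of them are shown because these genes carry the neutrophil result above, with matches in capitals; they lie at chr9:110419634-110419713, plus strand (Ngp), chr9:7558349-7558428, plus strand (Mmp8) and chr2:32387910-32387989, minus strand (Lcn2). A match is a description of the letters, not of a bound site.
Ngp: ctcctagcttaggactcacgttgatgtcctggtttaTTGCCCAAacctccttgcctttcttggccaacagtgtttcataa
Mmp8: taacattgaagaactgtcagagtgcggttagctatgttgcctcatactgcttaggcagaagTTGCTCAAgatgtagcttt
Lcn2: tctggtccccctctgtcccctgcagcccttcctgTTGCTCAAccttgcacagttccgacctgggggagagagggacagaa

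Some chemokines and most cytokines and receptors of acute inflammation rose as well. Of 27 chemokine genes tested, 10 were higher and none was lower (median log2 fold change 1.96), and of 23 inflammatory cytokines and receptors, 14 were higher and none was lower (median 2.51). Over all genes, 4.91% were higher. Cxcl2, a ligand that recruits neutrophils through CXCR2, was at 2891, 4965 and 2369 CPM in the KO_PP libraries, against 481, 846 and 496 CPM in the KO_NP libraries. Cxcl3, a ligand of the same receptor, was at 1278, 1945 and 615 CPM in the KO_PP libraries, against 133, 169 and 121 CPM in the KO_NP libraries. Neither gene's groups overlapped, and library 24 was the lowest of KO_PP for both. On the log2 scale the fold changes were 2.49 ± 0.41 for Cxcl2 (edgeR adjusted p = 0.0121) and 3.18 ± 0.44 for Cxcl3 (edgeR adjusted p = 0.0102). Cxcl1, the third of these ligands, was higher by 1.57 ± 0.36 (edgeR adjusted p = 0.0347).

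Ccl5, which attracts T cells and monocytes, had the largest increase of the chemokines, at 150.2, 999 and 94.5 CPM in the KO_PP libraries, against 4.51, 10.05 and 4.08 CPM in the KO_NP libraries. Library 23 exceeded the other KO_PP libraries by far, yet the lowest KO_PP value was well above the highest KO_NP value (log2 fold change 6.06 ± 0.96, edgeR adjusted p = 0.0119). Ccl9 and Cxcl16 rose with little spread: Ccl9 was at 333, 358 and 346 CPM in the KO_PP libraries, against 50.5, 102 and 73.8 CPM in the KO_NP libraries. The log2 fold changes were 2.20 ± 0.31 for Ccl9 (edgeR adjusted p = 0.0102) and 1.70 ± 0.27 for Cxcl16 (edgeR adjusted p = 0.012). Ccl2, the main attractant of monocytes, was at 48.2, 55.2 and 60.8 CPM in the KO_PP libraries, against 23.6, 29.4 and 10.2 CPM in the KO_NP libraries, without overlap but short of the threshold (edgeR adjusted p = 0.0671).

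Of the 10 called chemokines, 7 had a promoter window, and 5 of these (Ccl9, Cxcl1, Cxcl2, Cxcl3 and Cxcl10) held the NF-kB-type motif GGNNTTTCC on either strand, which 5.62% of the 27025 genes hold. No window of the 7 held the C/EBP-type motif, and no window of the 7 neutrophil genes held the NF-kB-type one. With shares of 10.8% and 5.62% over all genes, fewer than 1 match in 7 windows is the background for either motif. Cxcl1, Cxcl2 and Cxcl3 lie close together on chromosome 5, and whether their matches are independent was not tested. No share was taken for the uncalled members of either list, so that the matches cannot be tied to the change. The stretches of the 3 CXCR2 ligands are shown with matches in capitals and lie at chr5:90891121-90891200, plus strand (Cxcl1), chr5:90903768-90903847, plus strand (Cxcl2) and chr5:90785994-90786073, plus strand (Cxcl3).
Cxcl1: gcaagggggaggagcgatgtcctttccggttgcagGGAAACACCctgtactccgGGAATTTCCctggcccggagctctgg
Cxcl2: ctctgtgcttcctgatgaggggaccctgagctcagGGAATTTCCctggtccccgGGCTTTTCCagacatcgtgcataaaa
Cxcl3: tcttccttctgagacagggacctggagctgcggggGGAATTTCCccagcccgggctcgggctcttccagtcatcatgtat

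Among the cytokines, Il1b, which encodes the interleukin-1 that activated myeloid cells secrete, was at 1729, 3477 and 1248 CPM in the KO_PP libraries, against 259, 479 and 371 CPM in the KO_NP libraries. Il1a, its sister cytokine, was at 1414, 1773 and 622 CPM in the KO_PP libraries, against 69.7, 189 and 106 CPM in the KO_NP libraries. Tnf, the central cytokine of acute inflammation, was at 325, 660.3 and 287 CPM in the KO_PP libraries, against 70.99, 119 and 61.4 CPM in the KO_NP libraries. For all 3 the groups were apart and library 23 was the highest. On the log2 scale the fold changes were 2.54 ± 0.45 for Il1b (edgeR adjusted p = 0.0144), 3.38 ± 0.51 for Il1a (edgeR adjusted p = 0.0109) and 2.34 ± 0.41 for Tnf (edgeR adjusted p = 0.0144). Il1r2, the decoy receptor that binds interleukin-1 without signalling, rose too and varied little, at 375, 253 and 354 CPM in the KO_PP libraries, against 22.9, 58.8 and 23.1 CPM in the KO_NP libraries (log2 fold change 3.23 ± 0.43, edgeR adjusted p = 0.0102). Il23a and Il12b, whose products pair to form interleukin-23, were higher by 2.71 ± 0.32 and 3.70 ± 0.58 on the log2 scale (edgeR adjusted p = 0.0102 and 0.0118), and Il6 by 1.54 ± 0.35 (edgeR adjusted p = 0.034). Csf3, which encodes G-CSF, the growth factor of neutrophils, was at 110.2, 287 and 56.2 CPM in the KO_PP libraries, against 15.2, 15.4 and 8.73 CPM in the KO_NP libraries, with a log2 fold change of 3.53 ± 0.57 (edgeR adjusted p = 0.0121).

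**Figure D3:**
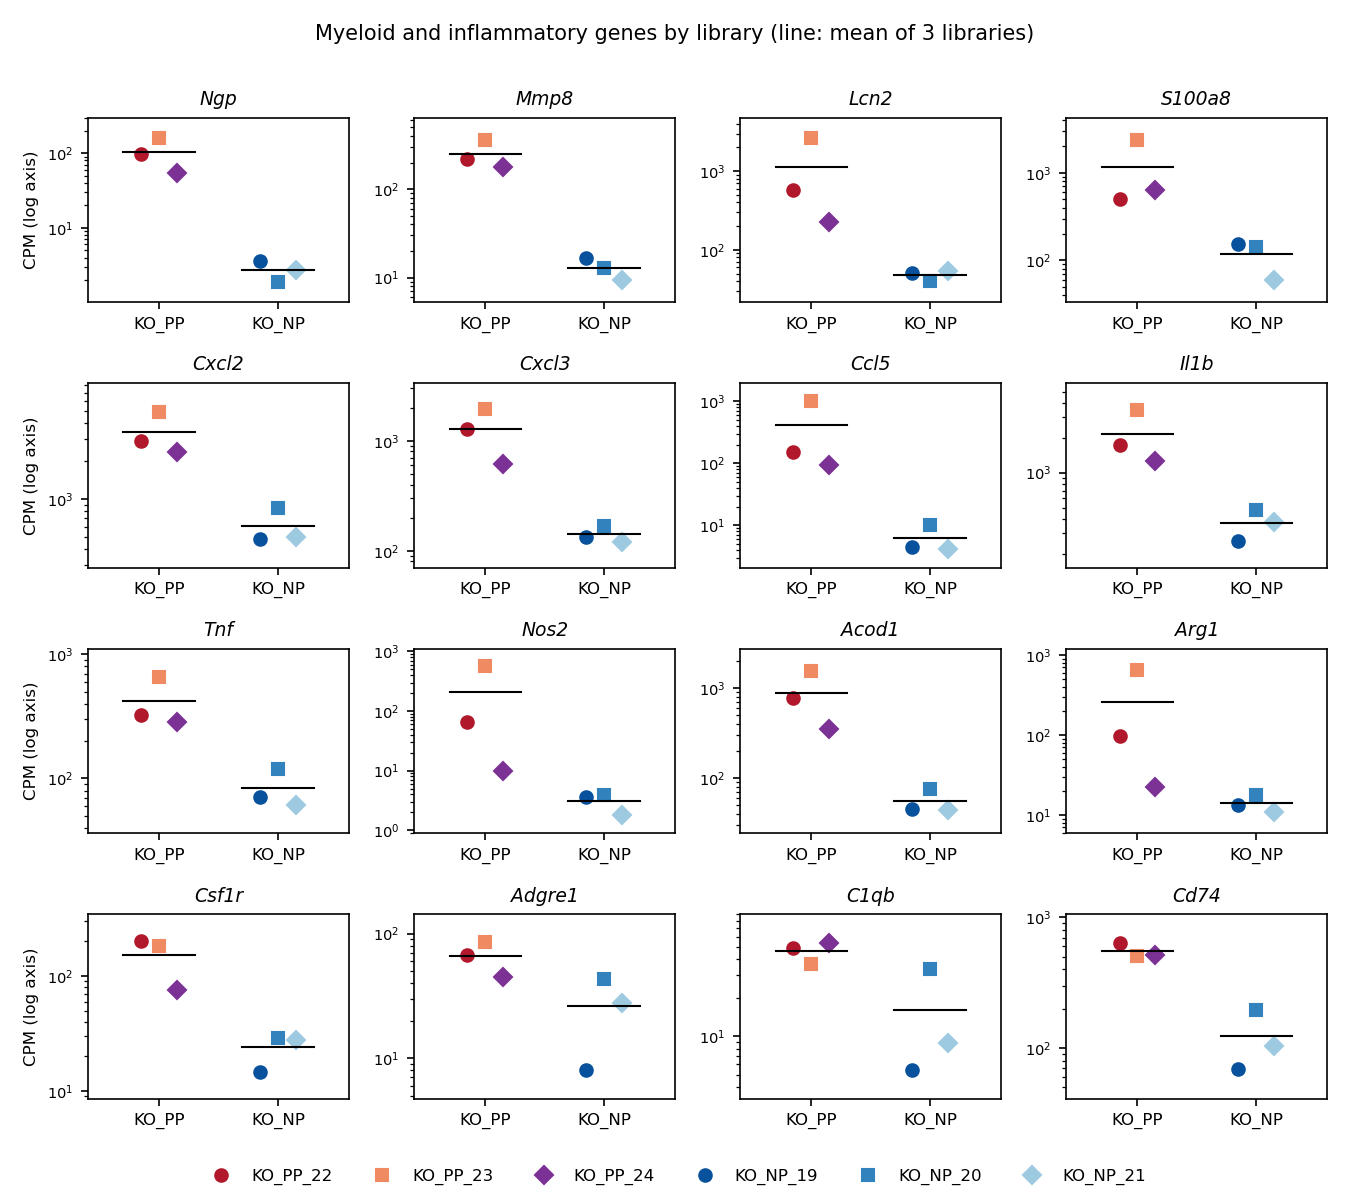
CPM on a log axis of 16 genes of myeloid cells and inflammation in each library, KO_PP at the left and KO_NP at the right of each panel, with a line at the mean of 3 libraries. The 3 KO_PP points lie above the 3 KO_NP points in every panel; 14 of the genes passed the test, Adgre1 and C1qb, a complement gene of macrophages shown after its values were seen, did not, and library KO_PP 23 is the highest for Lcn2, Ccl5, Nos2 and Arg1.

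Most monocyte markers and some macrophage markers rose. Of 10 monocyte markers, 7 were higher (median log2 fold change 2.68), and of 16 macrophage markers, 6 were higher (median 1.89), where 4.91% of all genes were. None of either list was lower. Chil3, a secreted chitinase-like protein of inflammatory monocytes, was at 2231, 1620.2 and 1352 CPM in the KO_PP libraries, against 48.3, 193 and 102 CPM in the KO_NP libraries. F13a1, coagulation factor XIII of monocytes, was at 349, 431 and 132 CPM in the KO_PP libraries, against 11.4, 40.9 and 15.01 CPM in the KO_NP libraries, and Vcan, the proteoglycan versican, was at 207, 103 and 56.4 CPM in the KO_PP libraries, against 13.8, 16.2 and 13.2 CPM in the KO_NP libraries. Each of these 3 had its lowest KO_PP value in library 24, still clear of all KO_NP values. The log2 fold changes were 3.92 ± 0.53 for Chil3 (edgeR adjusted p = 0.0102; reads are shared with its copy Chil4), 3.76 ± 0.60 for F13a1 (edgeR adjusted p = 0.012) and 3.08 ± 0.45 for Vcan (edgeR adjusted p = 0.0105).

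Csf1r, the receptor through which macrophages survive, was at 203, 181 and 75.04 CPM in the KO_PP libraries, against 14.7, 29.1 and 27.98 CPM in the KO_NP libraries, with a log2 fold change of 2.68 ± 0.43 (edgeR adjusted p = 0.012). Itgam, the integrin CD11b of monocytes, macrophages and neutrophils, was higher by 2.97 ± 0.50 (edgeR adjusted p = 0.0126). Adgre1, which encodes the macrophage antigen F4/80, was at 67.8, 85.1 and 44.9 CPM in the KO_PP libraries, against 7.98, 43.6 and 27.7 CPM in the KO_NP libraries. Its groups only just did not overlap, since KO_NP 20 came close to KO_PP 24, and it did not pass (log2 fold change 1.32 ± 0.52, edgeR adjusted p = 0.203). Mrc1, the mannose receptor of resident macrophages, at 142, 41.7 and 69.7 CPM in the KO_PP libraries, against 4.21, 37.7 and 11.9 CPM in the KO_NP libraries, did not pass either (edgeR adjusted p = 0.118). Library KO_NP 20 was the highest of its group for both genes, as it was for the macrophage sum.

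Called genes of both classical and alternative macrophage activation were higher. Of 16 genes of classical activation, 13 were higher (median log2 fold change 2.96), and of 19 genes of alternative activation, 6 were higher (median 1.76, with 2 negative). The share over all genes was 4.91%. None of either list was called lower. Nos2, the inducible nitric oxide synthase, was at 65.04, 558 and 9.69 CPM in the KO_PP libraries, against 3.67, 3.85 and 1.79 CPM in the KO_NP libraries. Library 24 was the lowest of KO_PP, above all KO_NP libraries, and library 23 was far above all others (log2 fold change 6.08 ± 1.28, edgeR adjusted p = 0.0252). Acod1, the enzyme that makes itaconate, was at 787, 1552 and 348 CPM in the KO_PP libraries, against 45.7, 76.4 and 43.7 CPM in the KO_NP libraries, and its log2 fold change was 4.02 ± 0.56 (edgeR adjusted p = 0.0102). Slc7a2, an importer of the arginine that Nos2 uses, was higher by 5.20 ± 0.83 (edgeR adjusted p = 0.012), and Arg1, the arginase that competes for arginine, was at 97.7, 657 and 22.6 CPM in the KO_PP libraries, against 13.4, 17.7 and 10.96 CPM in the KO_NP libraries. Arg1 followed the same order of libraries as Nos2, with a log2 fold change of 4.21 ± 1.01 (edgeR adjusted p = 0.0422). Il4ra, the receptor for interleukin-4 and interleukin-13, was higher by 2.23 ± 0.40 (edgeR adjusted p = 0.0155).

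Many receptors for bacteria, opsonins and antibodies rose. Of 26 genes of phagocytosis, Fc receptors and complement, 14 were higher, of 22 Toll-like and NOD receptors and NF-kB feedback genes 11 were higher, and none of either list was lower. Over all genes, 4.91% were higher. Clec4e and Clec4d, lectins that bind fungal and mycobacterial glycolipids, were higher by 2.79 ± 0.39 and 2.88 ± 0.37 on the log2 scale (edgeR adjusted p = 0.0102 for both). C5ar1, the receptor for the complement fragment C5a, was at 81.05, 134 and 72.2 CPM in the KO_PP libraries, against 12.8, 16.4 and 12.3 CPM in the KO_NP libraries, with no overlap and a log2 fold change of 2.79 ± 0.32 (edgeR adjusted p = 0.0102). Tlr2, a receptor for bacterial lipoproteins, was higher by 1.79 ± 0.31 (edgeR adjusted p = 0.0143) and Nod2, a sensor of bacterial cell wall fragments, by 1.99 ± 0.38 (edgeR adjusted p = 0.0179). Tlr4, the receptor for lipopolysaccharide, was at 25.6, 18.5 and 8.75 CPM in the KO_PP libraries, against 11.8, 19.9 and 13.8 CPM in the KO_NP libraries, so that the groups overlapped (log2 fold change 0.22 ± 0.41, edgeR adjusted p = 0.854), although its co-receptor Cd14 was higher by 2.85 ± 0.47 (edgeR adjusted p = 0.0121). The feedback inhibitors Tnfaip3 and Irak3 were higher by 2.26 ± 0.36 and 3.47 ± 0.59 (edgeR adjusted p = 0.0121 and 0.0139).

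Of 13 inflammasome genes 2 were higher, where 4.91% of all genes were, and none was lower (median log2 fold change 0.12). Nlrp3, the sensor that assembles with caspase-1, was at 180.1, 134 and 71.4 CPM in the KO_PP libraries, against 15.2, 19.4 and 13.2 CPM in the KO_NP libraries, a log2 fold change of 3.01 ± 0.38 (edgeR adjusted p = 0.0102), and Mefv, which encodes pyrin, was higher by 2.71 ± 0.37 (edgeR adjusted p = 0.0102). Casp1, the protease itself, was at 69.1, 93.8 and 96.9 CPM in the KO_PP libraries, against 118, 149 and 156 CPM in the KO_NP libraries; the KO_PP values were all below the KO_NP values, short of the threshold (log2 fold change -0.71 ± 0.26, edgeR adjusted p = 0.164). Of 25 interferon-stimulated genes, 6 were higher and none was lower (median log2 fold change 1.52). Rsad2, the antiviral enzyme viperin, was at 65.2, 153 and 54.5 CPM in the KO_PP libraries, against 7.17, 10.9 and 14.2 CPM in the KO_NP libraries, a log2 fold change of 3.08 ± 0.45 (edgeR adjusted p = 0.0107), and Isg15, a ubiquitin-like antiviral protein, was higher by 3.34 ± 0.65 (edgeR adjusted p = 0.0192). Of 14 genes of MHC class II presentation, 4 were higher, where 4.91% of all genes were, and the values of 13 did not overlap, all higher in KO_PP. Over all genes 14.8% were higher without overlap. Cd74, the chaperone of class II molecules, was at 633, 502 and 518 CPM in the KO_PP libraries, against 68.5, 197 and 103 CPM in the KO_NP libraries, a log2 fold change of 2.17 ± 0.40 (edgeR adjusted p = 0.0157), and H2-Ab1, a class II chain, was higher by 2.16 ± 0.45 (edgeR adjusted p = 0.0245).

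Proteases and matrix genes of tissue remodelling, 8 of 24 higher and none lower, included Mmp19 and Mmp14, higher by 3.36 ± 0.49 and 2.47 ± 0.43 on the log2 scale (edgeR adjusted p = 0.0107 and 0.0144). Fn1, fibronectin, was at 486, 104 and 63.9 CPM in the KO_PP libraries, against 22.7, 21.02 and 24.3 CPM in the KO_NP libraries; library 22 was several times above 23 and 24, and KO_NP was even (log2 fold change 3.27 ± 0.68, edgeR adjusted p = 0.0244). Of 30 lysosomal genes, 7 were higher (13 without KO_PP 24), where 4.91% of all genes were (7.59% without KO_PP 24). They were led by the cathepsin Ctsz, higher by 1.97 ± 0.36 (edgeR adjusted p = 0.0155), and the asparaginyl protease Lgmn, by 2.11 ± 0.43 (edgeR adjusted p = 0.0234). Markers of fibroblasts, the cells that make most matrix, had no edgeR call among 10 genes (median -0.94), with 3 at an unadjusted p under 0.05, and DESeq2 called 1, lower. Without KO_PP 24, edgeR called 1 of the 10 higher and 1 lower, where 7.59% and 2.46% of all genes were.

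Red blood cell genes had the largest median log2 fold change of the 43 lists, 7.11, or 7.09 with Slc4a1, absent from KO_NP, at its lower bound. Hbb-bs, a beta globin chain, was at 1034, 1393 and 131 CPM in the KO_PP libraries, against 8.07, 5.86 and 4.46 CPM in the KO_NP libraries, and Alas2, the first enzyme of heme synthesis in erythroid cells, was at 138, 192 and 7.47 CPM in the KO_PP libraries, against 0.987, 0 and 0.619 CPM in the KO_NP libraries. Libraries 22 and 23 were high and library 24 lay between them and the KO_NP libraries for both genes. Of 6 markers tested, 5 were higher, where 4.91% of all genes were. The log2 fold changes were 7.12 ± 0.86 for Hbb-bs (edgeR adjusted p = 0.0102) and 7.67 ± 1.35 for Alas2 (edgeR adjusted p = 0.0144). Counts divided between Hba-a1 and Hba-a2, and between Hbb-b1 and Hbb-bs, are uncertain because these copies are nearly identical. Slc4a1, the anion exchanger of the red cell membrane, was at 0.754, 1.92 and 2.32 CPM in the KO_PP libraries, against 0, 0 and 0 CPM in the KO_NP libraries. With no count in KO_NP it was at least 60.1-fold higher against a floor of 3 counts over that group.

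Of 15 genes that handle heme and iron, 5 were higher and none was lower, with 3 negative and a median log2 fold change of 1.47. Over all genes, 4.91% were higher. Hmox1, the enzyme that breaks down heme, was at 937, 919.7 and 124 CPM in the KO_PP libraries, against 34.5, 54.6 and 40.3 CPM in the KO_NP libraries. Like the globins it was high in libraries 22 and 23 and lower in 24, above all KO_NP values (log2 fold change 3.94 ± 0.67, edgeR adjusted p = 0.014). Fth1, the heavy chain of the iron store ferritin, was higher by 2.20 ± 0.51 (edgeR adjusted p = 0.0358), and Slc11a1, an iron and manganese transporter of phagosomes, by 2.60 ± 0.51 (edgeR adjusted p = 0.0202). Slc40a1, the iron exporter ferroportin, was at 84.04, 88.9 and 138 CPM in the KO_PP libraries, against 115, 296 and 178 CPM in the KO_NP libraries; the groups overlapped (log2 fold change -0.92 ± 0.37, edgeR adjusted p = 0.212). The part that red blood cell RNA had in the values of Hmox1 was not tested.

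Pancreatic enzyme genes were high in 1 of the 3 KO_PP libraries. The list summed to 112, 109.7 and 50086 CPM of nuclear counts in the KO_PP libraries, against 396, 1085 and 1624 CPM in the KO_NP libraries. Amy2b, a pancreatic amylase, was at 0.234, 0.106 and 5887 CPM in the KO_PP libraries, against 0.107, 0.481 and 0.371 CPM in the KO_NP libraries. Ctrb1, which encodes chymotrypsinogen, was at 0.182, 0.0532 and 2163 CPM in the KO_PP libraries, against 0.0644, 0.1203 and 0.186 CPM in the KO_NP libraries. Library KO_PP 24 thus held acinar enzymes far above the other 5 libraries, which held traces. Of the 30 genes of the list, 10 passed the filter and none was higher; Gcg, which enteroendocrine cells of the colon also express, was lower.

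Leaving KO_PP 24 out brought calls for 2 other members of this list. Cela1, an elastase, was at 17.6, 16.7 and 1675 CPM in the KO_PP libraries, against 59.6, 141 and 190.3 CPM in the KO_NP libraries. With all 6 libraries its log2 fold change was 2.13 ± 1.42 (edgeR adjusted p = 0.49), and without KO_PP 24 it was -2.93 ± 0.49 (edgeR adjusted p = 0.0125). Sycn, syncollin of secretory granules, was at 22.1, 17.9 and 284 CPM in the KO_PP libraries, against 85.8, 334 and 674 CPM in the KO_NP libraries; its log2 fold change was -1.75 ± 1.04 (edgeR adjusted p = 0.424), and without KO_PP 24 it was -4.19 ± 0.83 (edgeR adjusted p = 0.0214). Both were low in libraries 22 and 23 and present in every KO_NP library, where acinar enzymes such as Ctrb1 were near 0. Gcg, the precursor of glucagon-like peptides, was at 9.07, 11.8 and 7.23 CPM in the KO_PP libraries, against 23.6, 29.2 and 17.9 CPM in the KO_NP libraries. It was lower in all 3 KO_PP libraries (log2 fold change -1.33 ± 0.32, edgeR adjusted p = 0.0436), and without KO_PP 24 its adjusted p was 0.0581.

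**Figure D4:**
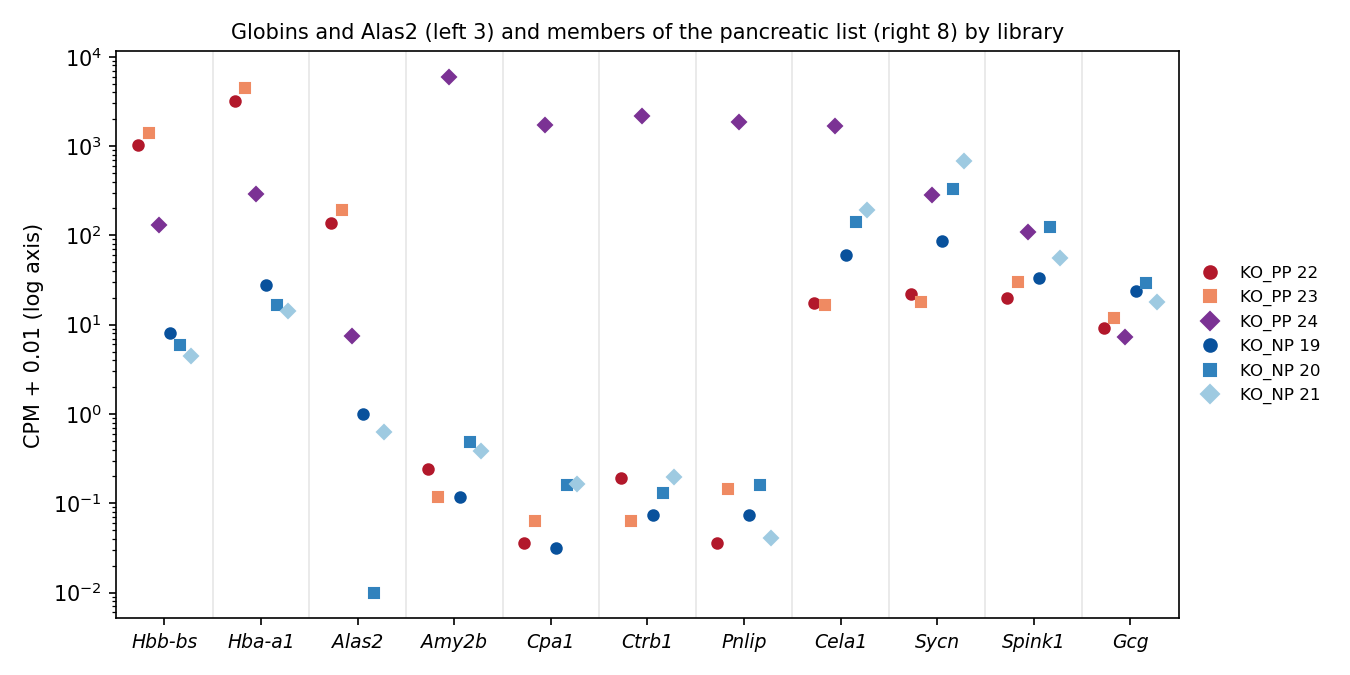
CPM plus 0.01 on a log axis of 3 genes of the red blood cell lineage and 8 members of the pancreatic list, with the 3 KO_PP libraries left of the 3 KO_NP libraries for each gene. Globins are high in KO_PP 22 and 23 and intermediate in KO_PP 24, Amy2b, Cpa1, Ctrb1 and Pnlip are high in KO_PP 24 alone, and Cela1 and Sycn are lower in KO_PP 22 and 23 than in every KO_NP library.

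Among the largest decreases were genes of the distal gut and of the epithelium. Hoxd13, a homeobox gene of the most distal gut, was at 0.05199, 0.0532 and 0 CPM in the KO_PP libraries, against 2.896, 4.75 and 12.04 CPM in the KO_NP libraries. Reg4, a lectin of the secretory cells at the crypt base, was at 0.988, 1.09 and 0.236 CPM in the KO_PP libraries, against 10.4, 19.1 and 64.3 CPM in the KO_NP libraries. Both were almost absent from the KO_PP libraries, and the KO_NP values varied several-fold with library 21 the highest. On the log2 scale the fold changes were -7.34 ± 1.00 for Hoxd13 (edgeR adjusted p = 0.0102) and -5.32 ± 0.81 for Reg4 (edgeR adjusted p = 0.0109). Atp12a, the proton and potassium pump of the distal colon, was at 10.7, 6.63 and 15.6 CPM in the KO_PP libraries, against 52.1, 118 and 140.3 CPM in the KO_NP libraries, a log2 fold change of -3.23 ± 0.45 (edgeR adjusted p = 0.0102), and Aqp8, a water channel of colonocytes, was at 10.996, 13.998 and 12.3 CPM in the KO_PP libraries, against 16.4, 76.5 and 48.8 CPM in the KO_NP libraries, a log2 fold change of -1.92 ± 0.48 (edgeR adjusted p = 0.0485; 0.0854 without KO_PP 24). These 2 were the lower ones among 22 genes of ion and water transport, of which 2 others, Clca4a and Clca4b, were higher (median -0.13). Over all genes, 0.605% were lower and 4.91% higher. Eno3, a muscle-type enolase, had a log2 fold change of -4.12 ± 0.55 (edgeR adjusted p = 0.0102), and Tgm3, a transglutaminase, one of -3.57 ± 0.68 (edgeR adjusted p = 0.0182). Slc46a1, a carrier of folate, had a log2 fold change of -3.71 ± 0.57 (edgeR adjusted p = 0.0109), and Slc15a1, a carrier of small peptides, one of -3.58 ± 0.78 (edgeR adjusted p = 0.0297).

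Most markers of the epithelium were not called. Of 18 colonocyte markers, Aqp8 alone was lower and none was higher (median log2 fold change -0.50), while 13 had a negative value. Without KO_PP 24, 3 were lower and Aqp8 was not among them. Over all genes, 0.605% were lower, or 2.46% without KO_PP 24. Car1, a carbonic anhydrase of colonocytes, was at 1952, 3689.9 and 2822 CPM in the KO_PP libraries, against 10578, 5767 and 6476 CPM in the KO_NP libraries, without overlap (log2 fold change -1.43 ± 0.39, edgeR adjusted p = 0.0671). Muc2, the gel-forming mucin of goblet cells, was at 1018, 247 and 492 CPM in the KO_PP libraries, against 269, 232 and 408 CPM in the KO_NP libraries, with overlap (edgeR adjusted p = 0.332). Of 24 genes of xenobiotic metabolism none passed by edgeR, although 22 were negative (median -0.72) and 12 had an unadjusted p under 0.05, where 18.8% of all genes did. DESeq2 called 6, all lower, and edgeR called 3 lower without KO_PP 24. The butyrate importer Slc5a8 was at 95.997, 66.5 and 174 CPM in the KO_PP libraries, against 137, 178 and 235 CPM in the KO_NP libraries (edgeR adjusted p = 0.36), and of 18 genes of butyrate uptake and microbial metabolite sensing only Hcar2, a receptor for butyrate and niacin, and Tiparp, a target of the aryl hydrocarbon receptor, passed, both higher, by 3.83 ± 0.82 and 1.93 ± 0.36 (edgeR adjusted p = 0.0279 and 0.0169). Beside these 2 of 18, 4.91% of all genes were higher.

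Some defence genes of the mucosa rose. Of 32 genes of mucosal defence and barrier, 8 were higher and 1, Reg4, was lower, with 10 negative and a median log2 fold change of 0.74. Over all genes, 4.91% were higher and 0.605% lower. Duoxa2, which matures the hydrogen peroxide-producing oxidase of the epithelium, was at 163, 126 and 202 CPM in the KO_PP libraries, against 30.1, 45.4 and 15.8 CPM in the KO_NP libraries. Retnlb, a goblet cell protein that acts on bacteria, was at 230.2, 97.8 and 199 CPM in the KO_PP libraries, against 17.6, 43.6 and 23.9 CPM in the KO_NP libraries. For both genes each KO_PP library exceeded each KO_NP library. The log2 fold changes were 2.43 ± 0.40 for Duoxa2 (edgeR adjusted p = 0.0121) and 2.63 ± 0.43 for Retnlb (edgeR adjusted p = 0.0121). Saa3, an acute-phase serum amyloid, was at 3154, 17166 and 1258 CPM in the KO_PP libraries, against 229, 201 and 201 CPM in the KO_NP libraries, a log2 fold change of 5.10 ± 0.90 (edgeR adjusted p = 0.0144). Ido1, which degrades tryptophan, was higher by 4.48 ± 0.65 (edgeR adjusted p = 0.0105). The bactericidal lectin Reg3g was at 762, 809 and 1766 CPM in the KO_PP libraries, against 183, 537 and 92.4 CPM in the KO_NP libraries, without overlap but not past the threshold (log2 fold change 2.04 ± 0.62, edgeR adjusted p = 0.0982). Clca4b of the transport list, from the family of calcium-activated chloride channel regulators, was at 669, 461 and 306 CPM in the KO_PP libraries, against 37.4, 50.2 and 15.7 CPM in the KO_NP libraries, a log2 fold change of 3.80 ± 0.49 (edgeR adjusted p = 0.0102).

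No gene listed as a nuclear-encoded subunit of complex I, on which MCJ acts, passed the edgeR test. The 37 listed genes include Ndufa4, which is now assigned to complex IV. All 37 had a negative log2 fold change (median -0.66), the groups of 21 did not overlap, where 11.4% of all genes were lower without overlap, and 18 had an unadjusted p under 0.05, where 18.8% of all genes did. DESeq2 called 8, all lower, of the 350 genes it called lower in all. A similar shift was seen with antibiotic in wild-type mice. There, 36 of the 37 were negative in the fit of 12 libraries given below, with a median of -0.757. The median for MCJ-deficient mice in that fit was -0.672. The median difference was 0.0729, and 1 of the 37 had an unadjusted p under 0.05 for the difference, where 6% of all genes did. The decrease was thus not particular to MCJ-deficient mice. Ndufa9, a subunit of the matrix arm, was at 84.8, 90.8 and 115 CPM in the KO_PP libraries, against 161, 176 and 172 CPM in the KO_NP libraries, a log2 fold change of -0.81 ± 0.24 (edgeR adjusted p = 0.0922). Without KO_PP 24, 20 of the 37 were lower by the edgeR test, where 2.46% of all genes were, and the median was -0.95. The 13 mitochondrially encoded genes were negative too (median -0.51), with 0 called by edgeR or DESeq2 and 0 at an unadjusted p under 0.05. Without KO_PP 24, where 2.46% of all genes were lower, edgeR called 1 of the 13 lower, and their median was -0.85. Their share of all counts was 27.3, 25.4 and 35.2% in the KO_PP libraries, against 33.8, 43.9 and 49.0% in the KO_NP libraries. The share overlapped between the groups (exact two-sided permutation p = 0.2).

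Genes of fat tissue marked library KO_PP 22. Cfd, adipsin, which fat cells secrete, was at 277, 98.4 and 53.7 CPM in the KO_PP libraries, against 6.31, 10.4 and 0.186 CPM in the KO_NP libraries, a log2 fold change of 4.67 ± 1.09 (edgeR adjusted p = 0.0386). It was the 1 adipocyte marker of 6 tested that passed, against 3 without KO_PP 24. Over all genes, 4.91% were higher with all 6 libraries and 7.59% without KO_PP 24. Adipoq, adiponectin, was at 20.5, 13.7 and 6.46 CPM in the KO_PP libraries, against 1.01, 2.496 and 0 CPM in the KO_NP libraries (edgeR adjusted p = 0.0957). Library 22 was the highest for both, and Plin4, Mrap and Serpina3c, 3 of the largest increases, were likewise highest there, with 21.8, 2.02 and 4.11 CPM of Plin4 in the KO_PP libraries against 0, 0.331 and 0.309 CPM in the KO_NP libraries. The part that adipocytes had in these increases was not tested.

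The effect of antibiotic was set beside that in wild-type mice in 1 fit of 12 libraries (KO_PP, KO_NP, WT_PP and WT_NP), with the difference between genotypes as an interaction. That fit called 283 genes in MCJ-deficient mice (1.8% of 15725) and 951 in wild-type mice (6.05%), of which 161 were shared with the same sign and 0 with opposite signs: 56.9% of the MCJ-deficient calls and 16.9% of the wild-type calls. Of the 714 genes higher in the 6-library fit, 447 (62.6%) were higher in wild-type mice by that fit, where 5.12% of all genes were, and of the 88 lower genes 25 (28.4%) were lower, where 0.928% of all genes were. No gene differed between genotypes at an adjusted p under 0.05, with 943 (6%) at an unadjusted p under 0.05; DESeq2 called 131, and 125 were called without WT_PP 11. The 2 genotypes do not share libraries, and each effect rests on its own DSS group.

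Among the marker sums, the smallest p of a difference between genotypes were those of eosinophil and mast cell and of macrophage genes, and no difference passed the adjusted threshold. The difference in pancreatic genes, 6.27 on the log2 scale (exact permutation p = 0.49), rested on KO_PP 24, without which the log2 ratio was -3.22 in MCJ-deficient mice, against -2.25 in wild-type mice. Markers of macrophages summed to 6074, 893 and 6711 CPM in the WT_PP libraries 10, 11 and 12, against 179, 129 and 167 CPM in the WT_NP libraries 7, 8 and 9. The wild-type sums were thus lower with DSS alone than those of KO_NP, and WT_PP 11 lay far below the other WT_PP libraries. The log2 ratio was 1.24 in MCJ-deficient and 4.85 in wild-type mice, a difference of -3.61 (exact two-sided permutation of genotype within treatment, p = 0.02, adjusted over 19 sums 0.143). Adgre1 had a log2 fold change of 5.82 ± 0.81 in wild-type mice and a difference of -4.49 ± 0.98 (edgeR unadjusted p = 0.000413, adjusted p = 0.26). The sum of eosinophil and mast cell markers had a difference of -3.91 (exact permutation p = 0.005, adjusted 0.095), with 33.4, 38.4 and 34.6 CPM in KO_PP and 50.5, 67.9 and 52.1 CPM in KO_NP, and with 425, 89.04 and 147 CPM in WT_PP and 20.7, 16.9 and 32.6 CPM in WT_NP.

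Ngp and Cd177 had a positive difference, also without a call. Ngp, of the neutrophil list, had a log2 fold change of -0.10 ± 0.85 in wild-type mice and a difference of 5.36 ± 1.25 (edgeR unadjusted p = 0.000727, adjusted p = 0.268). Cd177, known as a surface protein of neutrophils but no member of the neutrophil list, and 1 of the 5 genes with the smallest p for the difference, was at 61.1, 74.95 and 39.7 CPM in KO_PP and 12.7, 15.9 and 13.4 CPM in KO_NP, and at 9.899, 25.04 and 12.3 CPM in WT_PP and 26.3, 35.7 and 40.8 CPM in WT_NP, scaled over all 17 libraries. Each KO_PP value was above each KO_NP value, whereas each WT_PP value was below each WT_NP value, a difference of 3.18 ± 0.50 (edgeR adjusted p = 0.147). The 5 libraries of mice with no treatment named held 3.09 to 16.5 CPM of Cd177 but at most 0.878 CPM of S100a8, so that Cd177 did not follow this neutrophil gene there. Ang4, an antimicrobial ribonuclease of goblet and Paneth cells, was at 18.1, 23.01 and 24.6 CPM in KO_PP and 10.2, 25.3 and 69.4 CPM in KO_NP, and at 64.9, 236 and 158 CPM in WT_PP and 5.58, 2.48 and 6.72 CPM in WT_NP. Its groups overlapped in MCJ-deficient mice and were apart in wild-type mice, a difference of -5.64 ± 0.90 (edgeR adjusted p = 0.147). The 5 also included Hbb-bs and Hbb-b1, globin genes that were high in KO_PP 22 and 23.

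**Figure D5:**
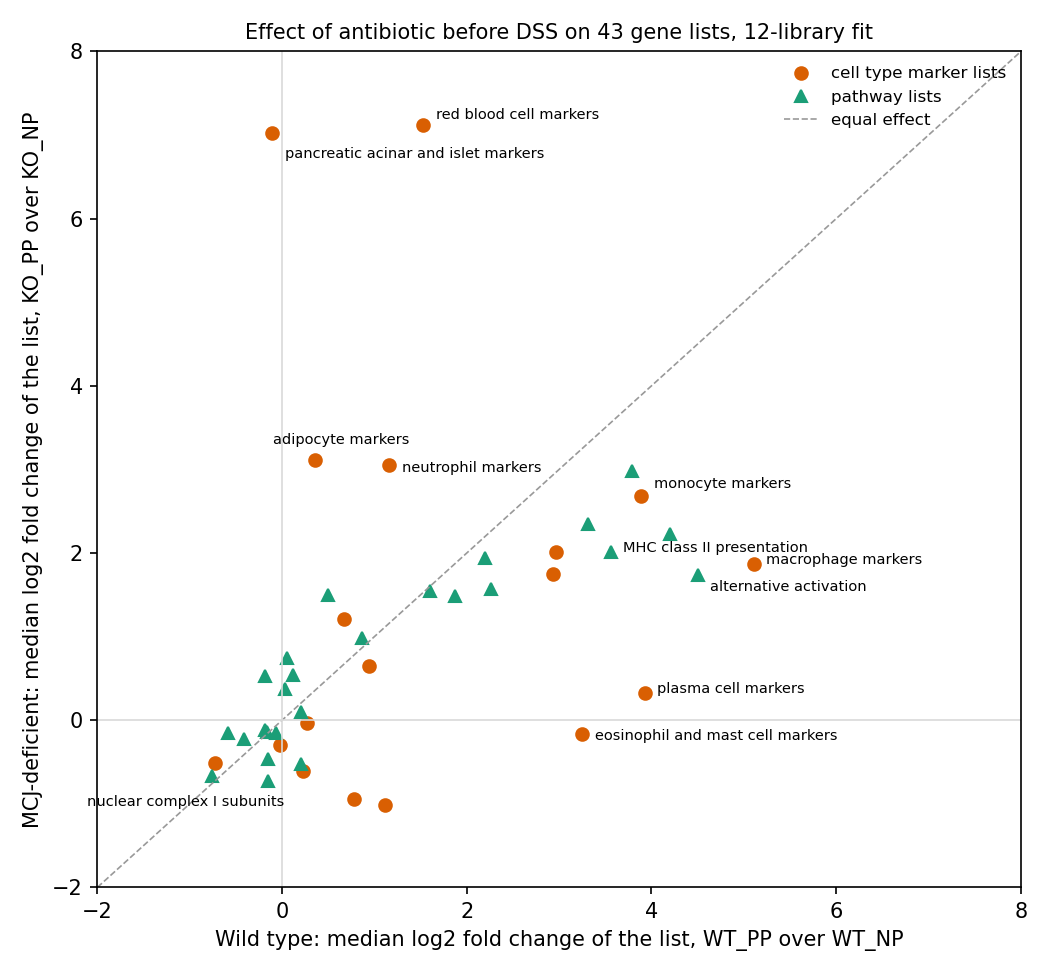
Median log2 fold change of antibiotic before DSS over DSS alone for each of 43 gene lists, in MCJ-deficient mice on the vertical axis and in wild-type mice on the horizontal axis, from the 12-library fit; circles are cell type markers, triangles pathways, and the dashed line marks equal effects. Red blood cell (7.12 against 1.53), pancreatic, adipocyte and neutrophil lists lie above the line, and macrophage (1.87 against 5.11), alternative activation, plasma cell and eosinophil and mast cell lists lie below it.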

How the data were processed

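RNA was sequenced from colon macrophage preparations that the labels number by mouse, obtained per the labels by washing and collagenase type IV digestion, extracted with Trizol and made into NuGEN Universal Plus mRNA-Seq libraries. Per the submitters' processing notes, CASAVA 1.8.2, FastQC, Trim Galore, STAR 2.5.4, DESeq2 and the mm10 build were used; the counting program, annotation and strand setting are not given in the sources used here, so that overlapping and antisense genes cannot be told apart. The deposited values are raw counts per gene, which the authors left unnormalized.

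The deposited tables were joined by gene number. Of 27179 genes, 25275 were named from RefSeq, 18 from GENCODE and 1886 not at all. Main tests used edgeR 4.0.16 (R 4.3.3): TMM scaling, filterByExpr, quasi-likelihood fits of KO_PP against KO_NP (6 libraries) and of the genotype difference (12 libraries), with Benjamini-Hochberg adjustment over all genes tested and calls under 0.05. SE is the absolute log2 fold change over the square root of F. CPM are scaled by the TMM factors of the 6 libraries unless stated otherwise. Marker sums were tested by exact permutation with SciPy 1.17.1. A fold against 0 counts used a floor of 3 counts over the group; such floors cover counting error only. On simulated counts for 13964 genes, the 6-library test recovered 3 of 100 genes changed by 1 on the log2 scale and 50 of 95 changed by 2, with 3 false calls; the 12-library difference test, on 15139 genes, recovered 0 of 96 and 13 of 95, with 0 false calls.

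Genes were named by rule: Dnajc15, the 15 largest increases and decreases among called genes that carry a descriptive symbol and average 50 or more normalized counts, the first 3 symbols and 5 smallest p of each list, the 5 smallest p of the difference, and the pancreatic genes; some genes that this rule names are not reported here. The groups and the 43 lists (18 of cell type markers, 25 of pathways) were chosen with earlier results of these data known. Alternatives were other scaling (DESeq2 size factors), DESeq2 1.42.0, no filter, gene lists left out, all 17 libraries and each library left out, and, chosen after seeing the data, limma 3.58.1 voom with quality weights and the difference without KO_PP 24 and WT_PP 11. Promoters are RefSeq windows on GRCm38.p6.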

Additional observations from a re-analysis of the deposited data

How the results depend on the processing

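Of 135 genes named in the text and tested, 106 were called, and none of these 106 changed sign under any alternative fit run. Single libraries decided the number of calls. With 1 library left out at a time, it ranged from 0 to 1163 higher and from 0 to 377 lower genes; the lowest came without KO_NP 21, where all 106 lost the call (highest adjusted p 0.211), and the highest without KO_PP 24, where 3 lost it. DESeq2 called 1147 higher and 350 lower genes, and limma voom with library quality weights, chosen after seeing the data, called 1134 and 276. Without a filter on low counts 135 genes were lower, and in the fit of all 17 libraries 228 were higher; 33 of the 106 lost the call in that fit. The number of genes that differed between genotypes, 0 by edgeR, was 131 by DESeq2 and 48 without the filter, and ranged from 0 to 125 with 1 library left out, with 1 without KO_NP 19, 7 without KO_PP 24 and 125 without WT_PP 11; without KO_PP 24 and WT_PP 11 together, chosen after seeing the data, it was 45. The cause of these shifts was not tested.

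Signs changed for uncalled genes and sums only. With 1 library left out at a time, the log2 fold change ranged from -0.39 to 2.45 for Igha, from -0.16 to 0.80 for Ly6g, from -0.19 to 0.54 for Tlr4, from -1.18 to 0.31 for Ang4, and, with the lowest value without KO_PP 24, from -0.89 to 13.1 for Amy2b and from -2.93 to 2.63 for Cela1, which was at -1.85 with quality weights. The log2 ratios of marker sums ranged from -0.33 to 1.34 for B cells, from -0.068 to 0.62 for plasma cells, from -0.50 to 0.028 for goblet cells, from -1.03 to 0.0034 for fibroblasts, from -0.23 to 0.28 for endothelial cells and, with the lowest value without KO_PP 24, from -3.22 to 4.60 for pancreatic genes. The ratio for goblet cells was 0.046 over all counts and 0.070 as a median of members, and that of the crypt list was -0.27 as a median. No paired analysis was possible because the 2 groups share no replicate number.

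With 3 libraries against 3 a marker sum cannot reach a permutation p under 0.05, and the simulated tests show that most changes of 1 on the log2 scale, and most differences between genotypes of 2, would be missed. Transcripts at a few counts per library were limited by depth.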

Other observations

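Some dendritic cell markers were higher, at low levels. Of 9 tested, 3 were higher and none was lower, with 3 negative and a median log2 fold change of 1.74, which was 0.80 without KO_PP 24. The background for each count of markers in this paragraph is 4.91% of all genes higher, or 7.59% without KO_PP 24. Flt3, the growth factor receptor of dendritic cell precursors, was at 7.46, 4.82 and 7.44 CPM in the KO_PP libraries, against 0.107, 0.632 and 0.3404 CPM in the KO_NP libraries, and Ccr7, the receptor that guides migrating dendritic cells to lymph nodes, was at 22.6, 85.6 and 36.5 CPM in the KO_PP libraries, against 3.28, 7.34 and 3.03 CPM in the KO_NP libraries. Neither gene's groups overlapped (log2 fold changes 4.20 ± 0.73 and 3.41 ± 0.56, edgeR adjusted p = 0.0144 and 0.0121). Of 11 markers of T and NK cells, Il7r, the receptor for interleukin-7, alone passed, at 28.05, 44.4 and 8.92 CPM in the KO_PP libraries, against 1.18, 3.098 and 2.44 CPM in the KO_NP libraries (log2 fold change 3.60 ± 0.61, edgeR adjusted p = 0.0135), while Cd3e, the signalling chain of the T cell receptor, stayed under 1.31 CPM in every library. Prdm1, a repressor of transcription that plasma cells and many other cells express, was the 1 plasma cell marker that passed (2 without KO_PP 24), at 20.5, 28.8 and 16.8 CPM in the KO_PP libraries, against 2.64, 4.81 and 5.29 CPM in the KO_NP libraries. The immunoglobulin gene Igha showed no such step, at 83.8, 27.4 and 96.2 CPM in the KO_PP libraries, against 14.7, 163 and 10.5 CPM in the KO_NP libraries, with KO_NP 20 the highest (edgeR adjusted p = 0.961).

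Among the markers of crypt progenitors, Cd44 and Tgfbi, which myeloid and mesenchymal cells also express, were higher by 2.49 ± 0.37 and 2.81 ± 0.39 on the log2 scale (edgeR adjusted p = 0.0109 and 0.0102). Lgr5, the receptor of crypt stem cells, was at 0.02599, 0.692 and 0.0336 CPM in the KO_PP libraries, against 1.95, 1.17 and 0.402 CPM in the KO_NP libraries, with overlap. None of 24 cell cycle genes passed by edgeR or DESeq2 (median -0.50), and 2 had an unadjusted p under 0.05. Without KO_PP 24, edgeR called 1 of the 24 higher, where 7.59% of all genes were, and the median was -0.21. Ptgs2, the inducible cyclooxygenase, and Plaur, the urokinase receptor, were the 2 of 19 genes of fetal-like repair epithelium that passed, both higher, while Ly6a, the surface protein that names that state, was at 382, 420.1 and 530.1 CPM in the KO_PP libraries, against 221, 409 and 182 CPM in the KO_NP libraries, with overlap. Beside these 2 of 19, 4.91% of all genes were higher.

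Pfkfb3, which makes an activator of glycolysis, was at 63.7, 236 and 15.2 CPM in the KO_PP libraries, against 5.84, 8.42 and 11.8 CPM in the KO_NP libraries, and library 23 was again the highest (log2 fold change 3.59 ± 0.82, edgeR adjusted p = 0.0354). With the angiogenic factor Vegfa, at 55.5, 77.97 and 25.03 CPM in the KO_PP libraries, against 17.04, 16.6 and 19.9 CPM in the KO_NP libraries, it was 1 of 2 genes of glycolysis and hypoxia that passed among 24. Over all genes 4.91% were higher and 0.605% lower, the background for each count of calls with all 6 libraries in this paragraph. Without KO_PP 24, 8 of the 24 passed, all higher, where 7.59% of all genes were; Hif1a, the hypoxia-inducible factor, was 1 of them, with a log2 fold change of 1.71 ± 0.35 (edgeR adjusted p = 0.024, against 0.0701 with all 6 libraries). Of 18 immediate early genes, Ier3 alone passed (2 genes without KO_PP 24), at 264, 397 and 179 CPM in the KO_PP libraries, against 46.9, 70.7 and 45.2 CPM in the KO_NP libraries (edgeR adjusted p = 0.0107), and Fos, which tissue digestion can induce, was at 607, 737 and 594 CPM in the KO_PP libraries, against 965, 543 and 789 CPM in the KO_NP libraries, with overlap. None of 22 genes of endoplasmic reticulum and heat stress passed by edgeR, with 4 at an unadjusted p under 0.05 and 2 called by DESeq2, both higher, and edgeR called 3 higher without KO_PP 24; the chaperone Hspa5, at 3864, 2928 and 2585 CPM in the KO_PP libraries, against 1299, 1499 and 1776 CPM in the KO_NP libraries, had an adjusted p of 0.0961 by edgeR and 0.0195 without KO_PP 24. Of 14 clock genes, Dbp, an output gene of the clock, alone passed, at 2.13, 0.479 and 1.99 CPM in the KO_PP libraries, against 5.23, 12.5 and 12.8 CPM in the KO_NP libraries (log2 fold change -2.73 ± 0.63, edgeR adjusted p = 0.0359). Per2, a repressor of the clock, was at 14.5, 11.8 and 16.4 CPM in the KO_PP libraries, against 6.07, 5.96 and 6.41 CPM in the KO_NP libraries, without overlap (edgeR adjusted p = 0.0524). Without KO_PP 24, edgeR called 1 of the 14 clock genes higher and 1 lower, where 7.59% and 2.46% of all genes were. No call came from edgeR among the markers of eosinophils and mast cells, B cells, smooth muscle and pericytes, endothelium, and enteric neurons and glia, or among 26 genes of cholesterol and fatty acid synthesis. Of these, 0, 0, 4, 1, 0 and 5 had an unadjusted p under 0.05, and DESeq2 called 2 smooth muscle genes, both lower, and 2 synthesis genes, 1 higher and 1 lower. Without KO_PP 24, edgeR called 1 of the 26 synthesis genes higher, where 7.59% of all genes were.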
